A study of Mus musculus with 9 samples.

Results

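The genes described here are those that the study's authors listed as higher in Hepa1-6 cells given P-Por-Os with ultrasound than in cells given P-Por-Os alone. Every row of that deposited table was taken, which gave 27 genes of 217 distinct genes in the 3 deposited tables. Hepa1-6 is a mouse hepatocarcinoma line, wild type per the labels. P-Por-Os is the material under study, which the series title describes as an artificial enzyme that ultrasound activates. Each of 3 groups had 3 RNA-seq libraries. The control cells were untreated per the labels and received PBS per the series description, the P-Por-Os cells received 25.57 µg/mL of the material, and the P-Por-Os+US cells received the same dose together with ultrasound. The sources used here give neither the time of exposure nor the settings of the ultrasound. Cells given ultrasound without P-Por-Os are not analysed here, so an effect of ultrasound by itself and an effect of the pair cannot be told apart.

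The rows had been chosen by their values. In the authors' deposited table every log2 fold is 1 or more and every unadjusted p lies under 0.05, so what ultrasound added to P-Por-Os is given below as a description, without a further test, and the table holds no gene that fell or rose by less. The 27 genes were 0.179% of the 15074 genes that the authors tested in this comparison. That share reflects the fold minimum as well as p. In the authors' deposited table Tlr2, with an adjusted p of 0.0079, had rank 2483 by p among the genes tested. Rpl17-ps10, with an unadjusted p of 0.046, had rank 5857. Many unlisted genes, of unknown direction, thus had p-values as small. Values are RPKM, reads scaled to the exonic length of the gene and to the library total. The steps between low values placed the library totals between 34744000 and 37664000 reads, and read numbers are given beside low values. Of 5 hepatocyte markers (Alb, Afp, Apoa1, Ttr and Hnf4a), 0 were among the 217 genes, so the cell type could not be checked from these tables. Whether replicate libraries are separate cultures is not in the labels, and the spread between them may be technical. In such bulk RNA, more RNA per cell and more cells with the RNA cannot be told apart.

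Several of the listed genes belong to well-known regulatory circuits. Metallothioneins are small cysteine-rich proteins that bind zinc and copper, and their genes are switched on by the zinc-sensing factor MTF1 at short metal response elements in their promoters. Cells that sense interferon induce antiviral genes such as Rsad2 through interferon-stimulated response elements. Insig1 encodes a membrane protein of the endoplasmic reticulum that holds back the sterol-sensing SREBP factors when sterols are plentiful, and its own gene is a target of those factors.

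The promoters of Mt2, Mt1 and Rsad2 are shown because these genes had the most direct textbook link between a short DNA motif and an inducing signal. Each window runs from 250 bases before to 50 bases after the RefSeq start on GRCm38.p6. In the Mt2 and Mt1 promoters the capitals mark the core of the metal response element, searched as TGCACNC or TGCGCNC on both strands, and in the Rsad2 promoter they mark the interferon-stimulated response element, searched on both strands as GAAA, any 2 bases and GAAA again.
Mt2, chr8:94172368-94172667, plus strand: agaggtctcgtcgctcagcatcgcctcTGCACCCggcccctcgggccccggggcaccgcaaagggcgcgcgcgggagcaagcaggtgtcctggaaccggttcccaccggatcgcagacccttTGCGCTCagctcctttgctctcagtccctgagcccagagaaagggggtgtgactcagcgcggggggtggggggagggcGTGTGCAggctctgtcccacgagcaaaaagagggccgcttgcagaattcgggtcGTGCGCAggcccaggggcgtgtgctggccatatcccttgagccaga
Mt1, chr8:94178839-94179138, plus strand: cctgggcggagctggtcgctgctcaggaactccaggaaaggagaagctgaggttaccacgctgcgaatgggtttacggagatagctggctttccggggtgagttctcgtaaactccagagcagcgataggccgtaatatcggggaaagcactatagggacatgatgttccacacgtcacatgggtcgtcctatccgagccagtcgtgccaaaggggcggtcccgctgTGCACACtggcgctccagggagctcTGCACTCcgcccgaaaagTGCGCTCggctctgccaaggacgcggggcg
Rsad2, chr12:26456403-26456702, minus strand: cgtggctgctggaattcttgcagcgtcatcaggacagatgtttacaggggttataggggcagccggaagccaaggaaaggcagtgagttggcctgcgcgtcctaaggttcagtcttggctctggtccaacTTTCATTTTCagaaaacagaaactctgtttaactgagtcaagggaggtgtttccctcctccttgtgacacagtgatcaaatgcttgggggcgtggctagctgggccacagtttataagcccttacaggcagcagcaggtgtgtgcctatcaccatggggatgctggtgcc

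The Mt2 window held 4 metal response cores and the Mt1 window 3. The Mt2 core at base 5 and the Mt1 cores at bases 3 and 21 lie after the RefSeq start. The GENCODE M21 annotation starts Mt2 further along, at 94172664, and all 4 Mt2 cores lie before that start. Such counts depend on the start chosen, so they are not set against the folds. Of 32841 RefSeq promoter windows of the same length, 25.71% held at least 1 core and 0.518% held 4 or more. Among the 11 listed genes with a window, Selenbp1 and Insig1 also held a core. The interferon-stimulated letters were found in the Rsad2 window, once, and in 3.44% of all windows, and in none of the other 10 listed genes with a window. These are matches of letters and do not show that a factor bound there.

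Mt2 had both the highest fold and the highest level of the list, while Mt1 was 15th of the 27 by fold and 5th by level. Mt2, on chromosome 8 from 94172664 to 94173568 (GRCm38, 3 exons), was at 32.1, 28.6 and 28.3 RPKM in the P-Por-Os libraries and at 141, 147 and 135 RPKM in the P-Por-Os+US libraries. All P-Por-Os+US libraries lay far above all P-Por-Os libraries, with the lowest of the former 4.20 times the highest of the latter. In the authors' deposited table the log2 fold was 2.33 with an adjusted p of 1.3e-10, and Mt2 had rank 2 by p among the genes tested. Mt1, which lies on the same strand from 94179082 to 94180327, was at 9.69, 8.90 and 10.5 RPKM without ultrasound and at 19.2, 19.2 and 22.1 RPKM with it. Its groups were also well apart, and the log2 fold in the authors' deposited table was 1.13 with an adjusted p of 1.9e-08.

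Both metallothioneins had control values, since both were also listed against control. Mt2 was at 6.68, 7.80 and 10.7 RPKM in the control libraries, and Mt1 at 3.58, 4.13 and 5.25 RPKM. The 3 groups formed steps without overlap for both genes, from control to P-Por-Os to P-Por-Os+US. From step to step the ratio of group means was 3.53 and then 4.75 for Mt2, against 2.24 and then 2.08 for Mt1. The ratio of Mt2 to Mt1 within a library does not depend on how libraries were scaled to each other. It was 1.93 ± 0.0968 in control, 3.08 ± 0.333 with P-Por-Os and 7.02 ± 0.810 with P-Por-Os+US (SD, n = 3 each). With P-Por-Os+US every library was at 6.10 or above, and no library of the other groups was above 3.32. The annotated exons of Mt1 cover its whole span of 1246 bases, introns included, so its RPKM is low for its number of reads: 398 to 470 reads per library with P-Por-Os, against 598 to 692 for Mt2.

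RP23-98C9.5 is a clone-named gene model that the GENCODE M21 annotation does not hold under this name. It was at 7.13, 6.27 and 6.23 RPKM with P-Por-Os and at 31.1, 32.3 and 29.8 RPKM with P-Por-Os+US, and its log2 fold in the authors' deposited table was 2.32, as for Mt2. An antisense model of that annotation, Gm45774, spans 94170748 to 94173412 on the minus strand of chromosome 8 and overlaps 73.5% of the exonic length of Mt2. When the exonic length of Gm45774, 2665 bases, was used for RP23-98C9.5, its RPKM came to nearly the same numbers of reads as Mt2 in every library. In the control libraries these were 148, 170 and 221 reads for RP23-98C9.5 against 148, 166 and 222 reads for Mt2, and over the 9 libraries the ratio ran from 0.9934 to 1.0241. The reads of the model and those of Mt2 cannot be told apart here, so RP23-98C9.5 adds no separate gene to the list, although counts of the 27 rows include it. No source used here says how the counting treated strand or reads over overlapping genes.

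**Figure D1:**
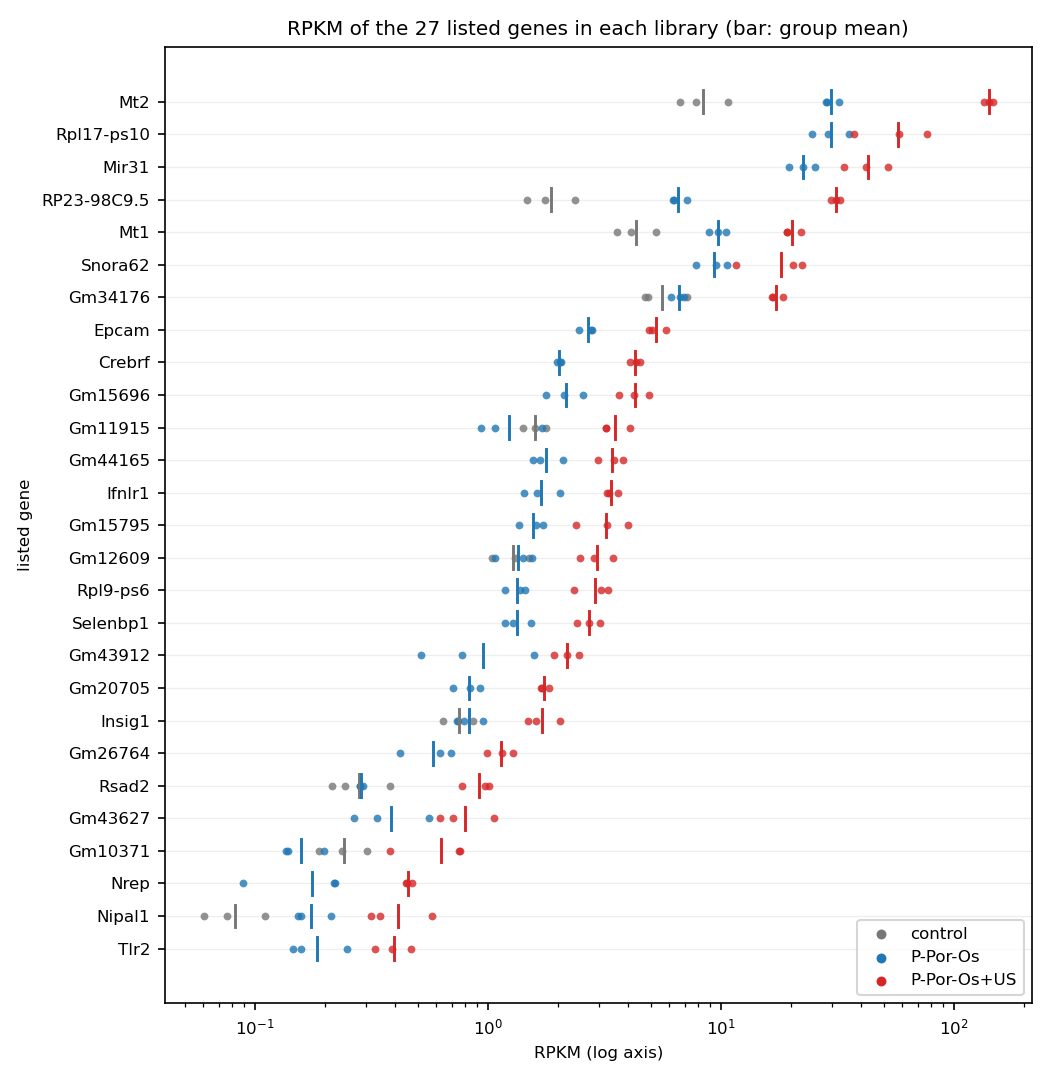
RPKM of each listed gene (rows, ordered by the P-Por-Os+US mean) in each library on a log axis, with points for libraries and a short bar for each group mean. Control points are present for the 10 genes with control values. Levels run from Tlr2, at a P-Por-Os+US mean of 0.395 RPKM, to Mt2, at 141 RPKM.

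Rsad2, Ifnlr1 and Tlr2 are described side by side, an arrangement made after their values were seen. Rsad2, the interferon-induced antiviral enzyme viperin, was at 0.290, 0.283 and 0.282 RPKM with P-Por-Os and at 0.971, 0.774 and 1.01 RPKM with P-Por-Os+US. These values stand for 44 to 46 reads per library without ultrasound and 119 to 152 with it, and the P-Por-Os libraries were nearly identical. The log2 fold in the authors' deposited table was 1.76 with an adjusted p of 2.2e-06. Ifnlr1 encodes the subunit of the interferon lambda receptor that gives it its specificity. It was at 2.04, 1.43 and 1.62 RPKM without ultrasound and at 3.24, 3.31 and 3.61 RPKM with it, with a log2 fold of 1.07 in the authors' deposited table. Without P-Por-Os replicate 2 its log2 ratio of means on the authors' scale was 0.961, under their minimum of 1. That scale is the log2 ratio of mean RPKM plus 0.07, the median by which the authors' log2 folds exceed that ratio over the 27 genes. Tlr2, a receptor for bacterial lipoproteins, was at 0.145, 0.157 and 0.249 RPKM without ultrasound and at 0.389, 0.327 and 0.468 RPKM with it. Tlr2 had the lowest level of the list with ultrasound and rested on 16 to 27 and 35 to 49 reads per library, and its groups were close, with the lowest P-Por-Os+US library 1.31 times the highest P-Por-Os library.

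Of a list of 25 interferon-induced genes, Rsad2 was in the table, where the listed share of 0.179% of all genes tested would give 0.0448. Its counterparts on that list include Ifit1, Isg15 and Mx1, for which no value is given here.

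Insig1 was at 0.954, 0.738 and 0.791 RPKM with P-Por-Os and at 1.60, 1.48 and 2.04 RPKM with P-Por-Os+US. P-Por-Os+US replicate 3 was the highest, and without it the log2 ratio of means on the authors' scale was 0.97, just under their minimum of 1. With all libraries the log2 fold in the authors' deposited table was 1.11 with an adjusted p of 4.0e-05. Of 33 genes of sterol and fatty acid synthesis, Insig1 was in the table, where the listed share of 0.179% would give 0.0591. Hmgcs1, an enzyme of the same pathway, was listed for P-Por-Os+US against control and not here.

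Crebrf encodes a regulator of the transcription factor CREB3, and among the described genes it had the smallest p after Mt2 in the authors' deposited table. It was at 1.98, 2.05 and 2.03 RPKM with P-Por-Os and at 4.06, 4.51 and 4.31 RPKM with P-Por-Os+US. Its long exons gave 621 to 631 and 1216 to 1373 reads per library, and neither group varied by more than 5.26% of its mean (SD over mean). The log2 fold in the authors' deposited table was 1.16 with an adjusted p of 2.3e-09. Leaving out any library kept the log2 ratio on the authors' scale between 1.12 and 1.20.

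Epcam, an adhesion protein of epithelial and hepatic progenitor cells, was at 2.46, 2.79 and 2.78 RPKM with P-Por-Os and at 4.91, 5.06 and 5.79 RPKM with P-Por-Os+US. The groups did not overlap, at 198 to 219 and 377 to 441 reads, and the log2 fold in the authors' deposited table, 1.05, was close to the minimum. On the authors' scale the log2 ratio was 0.99 without P-Por-Os replicate 1 and 0.971 without P-Por-Os+US replicate 3, under that minimum. Of 8 progenitor and biliary genes, Epcam was in the table, where the listed share of 0.179% would give 0.0143. Selenbp1, a selenium-binding protein that oxidises methanethiol, was at 1.29, 1.19 and 1.53 RPKM without ultrasound and at 2.72, 2.41 and 3.03 RPKM with it, with a log2 fold of 1.10 in the authors' deposited table. Its transcripts share 61.1% of their 31-base words with Selenbp2, so the split of reads between these paralogs is uncertain.

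Nrep and Nipal1 were at the bottom of the range. Nrep, named as a neuronal regeneration related protein, was at 0.217, 0.0887 and 0.221 RPKM with P-Por-Os and at 0.444, 0.448 and 0.470 RPKM with P-Por-Os+US. The P-Por-Os+US libraries agreed to 3.05% (SD over mean), whereas P-Por-Os replicate 2 was lower than the other two in its group and rested on 12 reads. Nipal1, a member of the NIPA magnesium transporter family, was at 0.211, 0.152 and 0.158 RPKM with P-Por-Os and at 0.345, 0.314 and 0.577 RPKM with P-Por-Os+US. P-Por-Os+US replicate 3 stood above the other two, and without it the log2 ratio for Nipal1 fell to 0.995 on the authors' scale. The log2 folds in the authors' deposited table were 1.43 for Nrep and 1.30 for Nipal1.

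The remaining 16 models were mostly not conventional protein-coding genes. GENCODE M21 classes 12 of the 27 genes as protein-coding, 11 of which are the genes above and the last of which is the retrogene Rpl9-ps6. That is 44.4% of the list, beside 52.5% of the genes listed for P-Por-Os+US against control and 68.8% of those for P-Por-Os against control. The others were 4 processed pseudogenes, 3 models to be experimentally tested (class TEC), 2 antisense models, and 1 each of lincRNA, processed transcript, sense intronic RNA, snoRNA and miRNA, beside the unmatched RP23-98C9.5.

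The place of these models in the genome was also looked at, which had not been planned. Of the 14 matched models that are not protein-coding, 8 lie inside an intron of a protein-coding gene on the same strand, or 57.1%. The share was 6 of 26 (23.1%) in the table of P-Por-Os+US against control, 2 of 43 (4.7%) in that of P-Por-Os against control, and 12.5% of all 33499 such models of the annotation. The 8 were Gm34176 in Kif26b, Gm43912 in Irak2, Gm20705 in Foxp1, Gm43627 in Fam114a1, Gm15795 in Pkhd1, Gm15696 in Senp5, Gm44165 in Tarm1 and Snora62 in Rpsa. Reads from unspliced RNA of these hosts would have the same strand and sequence and cannot be told apart from reads of the models. Gm15795 and Gm15696 also have 48.2% and 54.5% of their 31-base words in common with other genes, so their reads cannot be assigned with certainty. The difference in the share of intronic models was not tested, and which models pass depends on level and read number. The 12.5% covers every annotated model, whether or not the authors tested it in these cells.

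Gm34176, a processed pseudogene on chromosome 1 from 178755808 to 178756281, was the best measured of these models. It was at 6.11, 6.70 and 6.92 RPKM with P-Por-Os and at 16.5, 16.8 and 18.5 RPKM with P-Por-Os+US. The groups were far apart at 106 to 118 and 274 to 304 reads, and the log2 fold in the authors' deposited table was 1.47 with an adjusted p of 1.5e-07. It shares 29.5% of its 31-base words with transcripts of Ccdc121.

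Gm10371, an antisense model opposite Samd4, was at 0.135, 0.197 and 0.138 RPKM with P-Por-Os and at 0.750, 0.379 and 0.755 RPKM with P-Por-Os+US. It had the third-highest log2 fold, 2.06 in the authors' deposited table, but rested on 10 to 15 and 28 to 55 reads. Gm11915, an antisense model opposite Epha7, was at 1.07, 0.934 and 1.71 RPKM without ultrasound and at 4.07, 3.22 and 3.22 RPKM with it, on 12 to 22 and 40 to 51 reads. Neither antisense model shares exonic bases with the gene it runs against, but the spans overlap. Whether counting used strand is not known, so reads from unspliced RNA of Samd4 or Epha7 may be among theirs, which was not tested. The same holds for Gm26764, a lincRNA opposite Sptlc2.

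Gm43912 was the least even within a group. It was at 1.57, 0.777 and 0.516 RPKM with P-Por-Os and at 2.18, 2.46 and 1.93 RPKM with P-Por-Os+US, and the P-Por-Os libraries spread by 57.6% of their mean (SD over mean). Rpl9-ps6, a copy of the ribosomal protein gene Rpl9, was at 1.19, 1.37 and 1.45 RPKM without ultrasound and at 3.06, 3.26 and 2.33 RPKM with it. Its transcript shares 92.7% of its words with other genes, chiefly Rpl9, so its reads cannot be assigned with certainty.

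The other 10 models had log2 folds from 1.01 to 1.19 in the authors' deposited table. Their P-Por-Os means ran from 0.385 to 29.7 RPKM and their P-Por-Os+US means from 0.799 to 57.3 RPKM. Rpl17-ps10, a pseudogene that shares 93.3% of its words with other genes, chiefly Rpl17, was the 1 gene of the 27 whose adjusted p in the authors' deposited table, 0.12, was not under 0.05. It was at 28.9, 24.6 and 35.5 RPKM with P-Por-Os and at 58.0, 76.8 and 37.2 RPKM with P-Por-Os+US, and its groups nearly met. Snora62, a small nucleolar RNA of the class that guides pseudouridylation, was at 10.6, 9.53 and 7.83 RPKM without ultrasound and at 22.3, 20.4 and 11.6 RPKM with it. As for Rpl17-ps10, P-Por-Os+US replicate 3 was the lowest of its group and close to the P-Por-Os libraries. Snora62 has 149 annotated bases, whereas library products were selected at 200 to 500 bases per the labels' protocols. Its values may therefore count reads of longer RNA over its place in Rpsa, which was not tested.

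Mir31 had the smallest log2 fold of the list, 1.01 in the authors' deposited table. Its gene gives rise to the following mature arms, shown with the seed (bases 2 to 8) in capitals, since a microRNA's seed decides which transcripts it pairs with.
mmu-miR-31-5p, chr4:88910614-88910635, minus strand: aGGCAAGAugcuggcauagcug
mmu-miR-31-3p, chr4:88910577-88910599, minus strand: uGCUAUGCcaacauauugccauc
Mir31 was at 25.2, 22.6 and 19.7 RPKM with P-Por-Os and at 42.1, 52.3 and 33.7 RPKM with P-Por-Os+US, from 75 to 98 and 124 to 197 reads. The annotated hairpin has 106 bases, all of them inside an exon of the lincRNA AL805899.1, and the library products were selected at 200 to 500 bases per the labels' protocols. The values therefore measure reads over the hairpin's place in longer RNA, and neither mature arm was measured. The sequences are from RefSeq, build GRCm38.p6.

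The libraries within the P-Por-Os+US group did not rank alike across the list. P-Por-Os+US replicate 3 was the highest of its group for 9 of the 11 described protein-coding genes, the exceptions being Mt2 and Crebrf, and it was the lowest of its group for 10 of the other 16 models, or 9 of 15 without RP23-98C9.5. Every P-Por-Os+US library lay above every P-Por-Os library for all 27 genes, which the selection on the same libraries favoured. Without replicate 3, 22 of the 27 genes kept a ratio of means that met the authors' fold minimum on the authors' scale. With all libraries, the plain ratio of means was at least 2 for 19 of the 27. Leaving out each of the 6 libraries in turn, 13 of the 27 fell under the minimum at least once, 4 of them among the described protein-coding genes (Epcam, Ifnlr1, Insig1 and Nipal1).

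**Figure D2:**
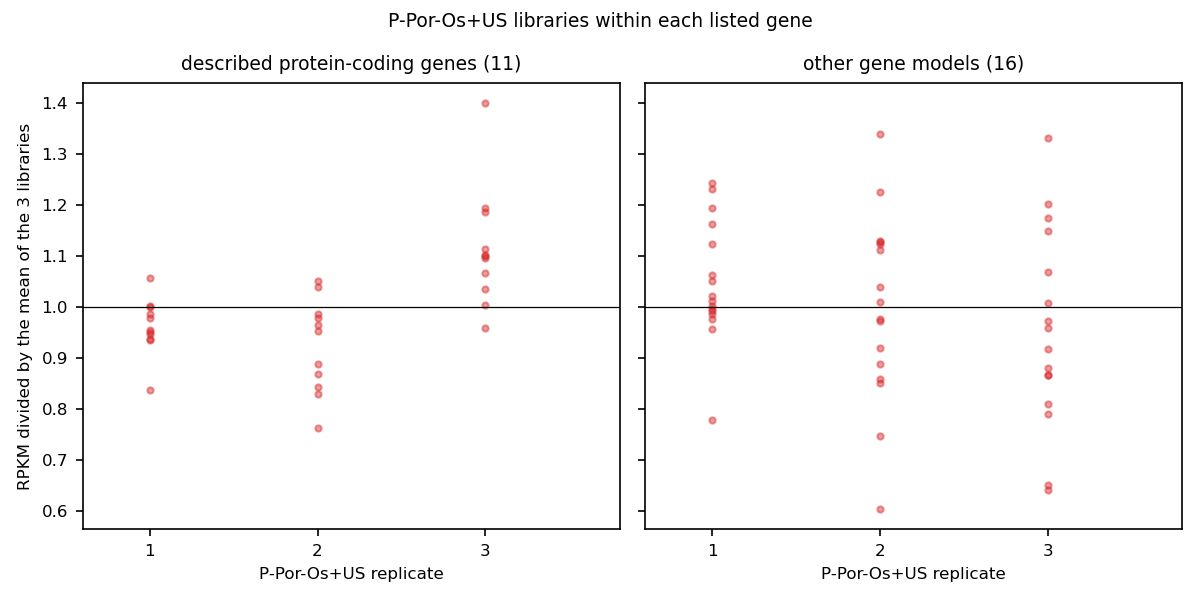
RPKM of each P-Por-Os+US library divided by the mean of the 3 libraries, by replicate number, for the 11 described protein-coding genes (left) and the other 16 gene models (right), with 1 point per gene. Replicate 3 was the highest of its group for 9 of the 11 genes on the left and the lowest for 10 of the 16 on the right.

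At the edge of the selection, Mir31 and Gm44165 lay just inside, with log2 folds of 1.01 and 1.02 in the authors' deposited table. Values for both treated groups were also at hand for 18 genes that were not listed in this comparison. All 18 had been listed as higher than control both with P-Por-Os and with P-Por-Os+US. Genes that met the authors' minimum for this comparison are not among the 18. The mean was higher with ultrasound for 7 of the 18 and lower for 11. That choice of genes shapes this balance and the single values below, so nothing general about ultrasound is read from them. Among the lower ones, Clca3b was at 39.5 ± 1.05 RPKM with P-Por-Os and 29.6 ± 3.64 with P-Por-Os+US, and Clca3a1 at 3.30 ± 0.238 and 2.31 ± 0.0981 (SD, n = 3 each). On the side of higher values, Gm38217 was nearest, at 1.18 ± 0.182 RPKM with P-Por-Os and 2.00 ± 0.484 with P-Por-Os+US (SD, n = 3 each), a log2 ratio of 0.83 on the authors' scale. Next came the immediate early gene Fosb at 0.49 and the zinc exporter Slc30a1 at 0.37. Slc30a1 is a target of the same metal-sensing factor as the metallothioneins. It was at 1.17 ± 0.0758 RPKM with P-Por-Os and 1.43 ± 0.0631 with P-Por-Os+US (SD, n = 3 each), a ratio of 1.23 beside 4.75 for Mt2 and 2.08 for Mt1. Of the 8 genes of the metallothionein and metal response list, Mt1 and Mt2 were in the table, where the listed share of 0.179% would give 0.0143.

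For 6 of the 10 gene lists no member was in the table. These were antioxidant defence, heat shock, the unfolded protein and integrated stress response, p53 targets, immediate early genes and replication-dependent histones. At the listed share of 0.179%, lists of 8 to 67 genes would hold 0.0143 to 0.12 members, so nothing is read from a list with none. The lists were chosen with earlier results of these data known, so counts of members are only a description. The table holds only genes selected as higher, so a gene outside it may have fallen, risen by less or not been measured.

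Control values were at hand for 10 of the 27 genes, because these were also listed for P-Por-Os+US against control, where the list held 61 of 15142 genes tested, or 0.403%. They allow a description of how P-Por-Os alone stood against control. Both of these groups took part in the selection, each as the group that P-Por-Os+US was set against. The differences and intervals come from limma on log2(RPKM + 0.1) over the 28 genes with values in all 9 libraries, with Benjamini-Hochberg adjustment over them. Of these 28 genes, 22 (78.6%) had an adjusted p under 0.05 and were higher, but 21 of them had been listed for being higher in that very comparison, where the list held 1.05% of the genes tested. Mt2, RP23-98C9.5 and Mt1 were among those 21, and an adjustment over so many listed genes gives p-values that are too small, so no call is made for any of the 10. The other 7 listed genes had been chosen for high values with ultrasound relative to both other groups, and the P-Por-Os libraries are shared with that choice, which favours low values there.

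Nipal1, 1 of these 7, was at 0.0604, 0.0755 and 0.110 RPKM in control, on 10 to 17 reads, and every P-Por-Os library lay above. The difference was 0.59 (95% interval 0.11 to 1.08) on the log2(RPKM + 0.1) scale. The limma adjusted p, 0.025, was not under 0.05 with a pseudocount of 1 (0.13) or without control replicate 1, control replicate 2 or P-Por-Os replicate 1 (0.095, 0.059 and 0.11).

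Rsad2 was at 0.215, 0.243 and 0.381 RPKM in control, a range that encloses all P-Por-Os libraries. Its difference between P-Por-Os and control was 0.05 on the log2 scale with a 95% interval from -0.36 to 0.45, or 0.782 to 1.36 times. With ultrasound its level was 3.29 times that of control, and 3.22 times that of P-Por-Os. Insig1 was likewise at 0.644, 0.742 and 0.865 RPKM in control, overlapping the P-Por-Os libraries. Its difference was 0.13 with a 95% interval from -0.21 to 0.47, or 0.863 to 1.38 times.

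Of the 4 models without a described function, Gm12609 and Gm34176 differed from control by 0.06 (95% interval -0.28 to 0.41) and 0.26 (-0.07 to 0.59). Gm34176 was at 4.70, 4.84 and 7.14 RPKM in control, and without control replicate 3 the difference was 0.45. Gm11915 and Gm10371 had lower means with P-Por-Os than in control, by differences of -0.38 (95% interval -0.75 to -0.01) and -0.41 (-0.90 to 0.08).

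**Figure D3:**
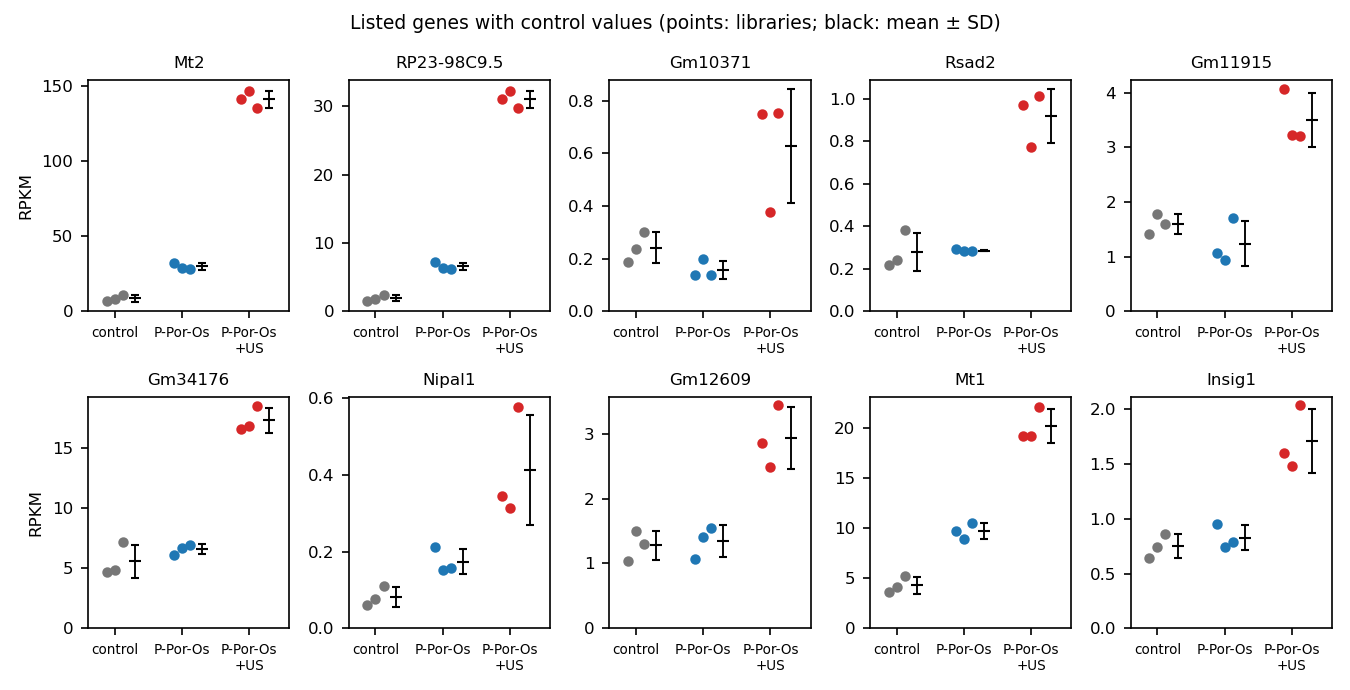
RPKM by library for the 10 listed genes with control values, in control, P-Por-Os and P-Por-Os+US, with the mean ± SD in black beside the 3 points of each group. Mt2, RP23-98C9.5 and Mt1 form steps without overlap, whereas for Rsad2, Insig1 and Gm12609 the control and P-Por-Os points overlap.

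**Figure D4:**
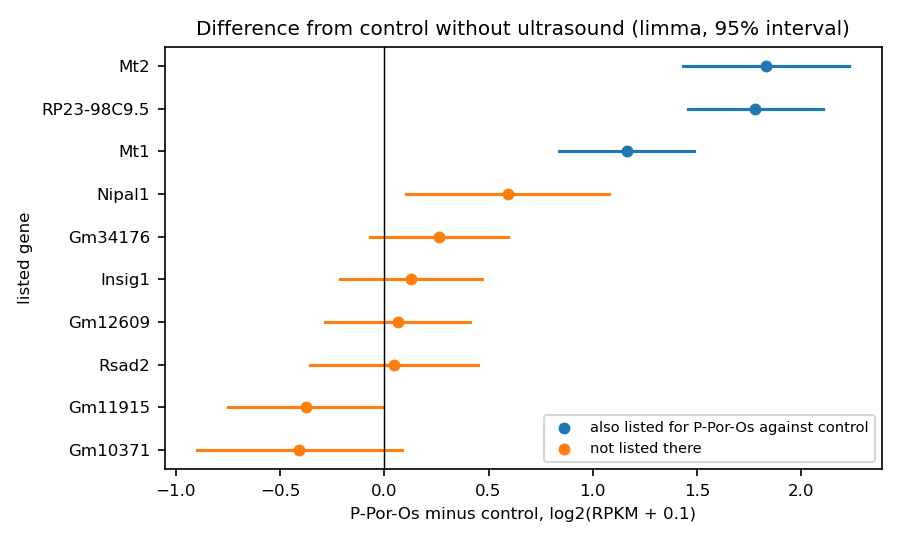
Difference between P-Por-Os and control on the log2(RPKM + 0.1) scale with its 95% interval from limma for the 10 listed genes with control values. Blue genes had been listed for that comparison too, and among the orange genes only the interval of Nipal1 lies above 0 and that of Gm11915 lies just below it, from which no call is made.

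Relative to control, the P-Por-Os+US level was 16.8 times as high for Mt2, 4.67 times for Mt1, 5.02 times for Nipal1, 3.10 times for Gm34176 and 2.28 times for Insig1. These comparisons share libraries with the ones above and were themselves a ground for listing, so the values are given side by side without a test. For the other 17 listed genes, Crebrf, Epcam, Selenbp1, Ifnlr1, Tlr2 and Nrep among them, control values are not analysed here.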

How the data were processed

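Stranded libraries of Hepa1-6 RNA were sequenced as paired reads of 150 bases, per the labels' protocols. The submitters' processing notes name fastp 0.23.4, featureCounts of Subread 1.5.1, edgeR 3.12.1 and GRCm38. No source used here names the aligner, the annotation or whether counting used strand. The authors deposited RPKM per library, and the log2 folds with log2 CPM, the F score and p-values are theirs, per the file headers. Members and gene lists were chosen with earlier results of these data known.

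Exonic lengths came from GENCODE M21 (26 of 27 symbols matched). RPKM times length was a whole number of reads within 0.05 for 126 of 156 member values under 400 reads, so read numbers are estimates. The number of genes tested was read from p over adjusted p. As the values are RPKM and not counts, limma 3.58.1 in R 4.3.3 was used, with a pseudocount of 0.1, a trend of variance on mean and no filter, after a test on simulated data. All genes with a described function and the 6 other models with the highest folds are given in every library. Rpl17-ps10, Snora62 and Mir31 were chosen after their values were seen. For single genes, the smallest two-sided p that an exact permutation of 3 and 3 libraries allows is 0.1, so that test was left out.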

Additional observations from a re-analysis of the deposited data

How the results depend on the processing

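The 27 listed genes became 3 with a log2 fold of at least 2, 10 with Bonferroni over all genes tested and 12 for protein-coding genes. They were 26 with the authors' adjusted p under 0.05 or 1 model per read-sharing group, and 20 with a mean of at least 1 RPKM. A plain ratio of means of at least 2 gave 19, and leaving out a library gave 22 to 24 on the authors' scale. Of the 10 genes with control values, 4 (RP23-98C9.5 included) had a limma adjusted p under 0.05 for P-Por-Os alone against control, all higher. Among all 28 genes in the fit, 22 (78.6%) did. Under 12 alternatives the count, which takes either direction, was 3 to 6. The 6, from control and P-Por-Os libraries only, included Gm10371 (-0.41) and Gm11915 (-0.38), both lower than in control. Gm11915 also counted as lower without control replicate 1 or without P-Por-Os replicate 3. Gm34176 counted as higher (0.45) without control replicate 3. Of 119 single-gene alternatives, 106 kept direction and side of that threshold. All alternatives for Mt2, RP23-98C9.5 and Mt1 are among the 106, an outcome that the authors' choice of these genes on the same libraries favoured. Reads of RP23-98C9.5 cannot be told apart from those of Mt2, so their alternatives are not separate evidence. The tally is therefore a description, and no support for a difference is read from it. Direction turned only where libraries were left out, for Rsad2 (-0.076 to 0.23) and Gm12609 (-0.065 to 0.21), both near 0. The cause of these shifts was not tested. No pairing by replicate number was seen over the 28 genes in the fit. Correlations of deviations ran from -0.27 to 0.32, with 2 of 9 libraries best with their own number. So few selected genes cannot exclude pairing. A replicate block also gave 4. Fewer than 20 reads in at least 1 library limit Gm10371, Gm11915, Gm43912, Nipal1, Nrep and Tlr2. The fit covers 28 genes, 21 of them selected for the contrast tested, so adjusted p-values are too small and no call is made from them. The counts without RP23-98C9.5 were chosen after seeing the data.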
